A study of Mus musculus with 32 samples.

Results

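Glul, Slc1a5, Aldh18a1, Pycr1, Prodh, Asns, Got1 and Glud1 encode steps of glutamine, proline and asparagine metabolism. These 8 genes were chosen by name and matched to the Ensembl identifiers of the count table, 8 of 55414 gene identifiers. The choice, like that of the gene lists and motifs below, was made with earlier results of these data known. RNA-seq counts of cultured mouse cardiac fibroblasts were compared in 32 libraries, 4 in each of 8 groups. The cells carried either LacZ, the control, or iCre, a Cre recombinase, and each set was kept in SS or given bFGF, IL-1b or TGFb. All groups are labelled C57BL/6J_Pkm2fl/fl, so that LacZ cells also carry the floxed allele, and Pkm is the gene that iCre recombines. The growth protocol, in contrast, names TAK1fl/fl animals and a TNFa treatment, neither of which appears in any title.

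All cells had grown in medium with 10% serum and human bFGF at 20 ng/ml and were used at passage 1, per the labels. The stimuli were bFGF at 20 ng/ml, IL-1b at 15 ng/ml and TGFb at 10 ng/ml for 24 h without serum. SS, which the labels do not spell out, is the group without a stimulus and is taken here only by its title. Groups were taken from titles, since for LacZ samples the treatment tag disagrees with the title. The labels do not say whether replicates came from separate animals or cultures, so p-values measure the spread between these libraries, which may be technical. The labels do not state how LacZ or iCre was delivered or what share of cells recombined. In bulk RNA, fewer cells of a type and less RNA per cell cannot be told apart.

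Proline is made from glutamate by a synthase that yields a pyrroline intermediate (Aldh18a1) and a reductase that closes the path (Pycr1), and Prodh starts its breakdown in mitochondria. Glul joins ammonia to glutamate to make glutamine, Asns moves the amide of glutamine onto aspartate to make asparagine, Got1 interconverts aspartate and glutamate in the cytosol, Glud1 deaminates glutamate in mitochondria, and Slc1a5 carries glutamine across the plasma membrane. In fibroblasts, proline is a main building block of collagen, and Asns, Pycr1 and Aldh18a1 are known targets of ATF4, a transcription factor of the amino acid response.

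Because Aldh18a1, Pycr1, Asns and Got1 moved together in what follows, their start sites are shown first. RefSeq promoter windows of 300 bases (250 before and 50 after the start, GRCm38.p6) were at hand for 7 of the 8 genes, all but Slc1a5. They were searched on both strands for TGATGNAA (the core of the C/EBP-ATF element), CACGTG (the E-box) and GTAAACA (a forkhead core), which do not overlap one another in these windows. Stretches of 150 bases are printed 5′ to 3′ on the gene's strand, with a match in capitals. All 4 genes lie on the minus strand, and the stretches span chr11:120643749-120643898 for Pycr1, chr6:7693210-7693359 for Asns, chr19:43524606-43524755 for Got1 and chr19:40588464-40588613 for Aldh18a1.
Pycr1: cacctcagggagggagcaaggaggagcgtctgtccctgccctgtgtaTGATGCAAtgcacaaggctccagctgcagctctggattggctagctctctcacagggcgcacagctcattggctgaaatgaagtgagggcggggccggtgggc
Asns: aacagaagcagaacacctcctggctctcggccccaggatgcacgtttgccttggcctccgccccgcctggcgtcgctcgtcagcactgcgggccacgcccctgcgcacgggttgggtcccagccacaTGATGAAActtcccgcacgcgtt
Got1: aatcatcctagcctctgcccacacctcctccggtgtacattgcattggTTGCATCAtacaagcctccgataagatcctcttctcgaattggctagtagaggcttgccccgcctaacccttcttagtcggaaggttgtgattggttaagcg
Aldh18a1: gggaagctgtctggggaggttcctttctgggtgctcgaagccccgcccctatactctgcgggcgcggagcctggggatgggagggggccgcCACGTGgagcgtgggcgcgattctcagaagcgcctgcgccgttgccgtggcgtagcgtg
TGATGNAA was found in 3 of the 7 genes, against 3.97% of all 32851 windows: at -103 from the start of Pycr1, at -23 from that of Asns and, on the opposite strand, at -102 from that of Got1. CACGTG was found in Aldh18a1 alone, at -59, against 7.15% of windows. GTAAACA was in none of the 7, against 3.65% of windows. A match describes letters in a window and is not evidence of binding.

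In GRCm38 coordinates of GENCODE M21, Glul (ENSMUSG00000026473) spans chr1:153899944-153909723 and Slc1a5 (ENSMUSG00000001918) chr7:16781340-16798274. Aldh18a1 (ENSMUSG00000025007) and Got1 (ENSMUSG00000025190) lie on the same chromosome, at chr19:40550257-40588463 and chr19:43499752-43524605. Pycr1 (ENSMUSG00000025140) spans chr11:120635712-120643769 and Prodh (ENSMUSG00000003526) chr16:18060357-18090203. Asns (ENSMUSG00000029752) spans chr6:7675169-7693254 and Glud1 (ENSMUSG00000021794) chr14:34310727-34345265. These spans need not begin at the RefSeq start sites used for the promoter windows. On the minus strand the Asns span begins at 7693254, within the printed stretch of 7693210 to 7693359. Its TGATGNAA match, at -23 from the RefSeq start, therefore lies inside the GENCODE span. Counts cover whole genes, exons and UTRs together. An exon of Teddm2 overlaps Glul on the opposite strand, with 330 counts over all libraries against 77167 for Glul. Dgcr6 lies opposite Prodh, with 19874 counts against 1705, but shares no exon with it in this annotation. Whether counting used strand is unknown. Prodh, with 12 to 138 counts in a library, is the least certain of the 8.

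The libraries held 20736203 to 34995038 counts. Levels below are CPM, that is counts scaled to a common library size, here with TMM factors, which correct for composition. All 8 genes passed the filter on low counts, which left 16760 genes. Prodh is thinly covered, with 12 to 138 counts in a library, whereas each of the other 7 had at least 382. A change is called at a Benjamini-Hochberg adjusted p under 0.05 in edgeR's quasi-likelihood test over all genes tested. Pkm, the recombined gene, was lower in the iCre library in 16 of 16 pairs that shared a condition and a number. Its mean log2 difference was -0.50 ± 0.11 (SE), with an adjusted p of 0.0744, or 0.00381 with the replicate number as a block and 0.0572 with that block on counts summed over conditions. Fibroblast markers summed to 12547 to 43989 CPM, and the 5 mural markers to 129 to 1089 CPM. The 7 cardiomyocyte markers summed to 4.37 to 128 CPM, where Tnnt2 had the highest median, 17.0 CPM, while Tnni3 had a median of 1.15 CPM and Myh6 and Nppa of 0 CPM. The 8 leukocyte markers summed to 34.4 to 837 CPM, and varied with the replicate number, with medians of 264, 107, 516 and 63.1 CPM for numbers 1 to 4.

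TGFb against SS, the first comparison, raised both enzymes of proline synthesis together with Asns and Got1 in LacZ and in iCre cells, and lowered Glul in both. Of the 8 genes, 4 rose and 2 fell in LacZ cells, where 46.3% of all genes tested were called, and 4 rose and 1 fell in iCre cells, where 38.3% were. The median log2 fold change of the 8 was 0.83 in LacZ and 0.87 in iCre, against -0.06 and -0.05 over all genes. In LacZ it lies in a gap between Glud1 at 0.05 and Aldh18a1 at 1.62. In iCre the gap is between Glud1 at 0.10 and Got1 at 1.65, so the median describes no single gene. Since the 8 genes were chosen with earlier results known, these shares and medians do not test them as a set.

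Aldh18a1, the entry enzyme, stood at 87.7, 86.9, 104 and 66.6 CPM in the LacZ SS libraries and at 261, 246, 254 and 300 CPM with TGFb. In iCre cells it went from 91.4, 73.9, 103 and 56.0 CPM to 278, 305, 222 and 232 CPM. The groups did not overlap in either vector. The fold was 3.08 in LacZ (log2 change with SE 1.62 ± 0.27, edgeR adjusted p = 2.0e-05) and 3.20 for iCre cells (1.68 ± 0.27, 2.2e-05), with 4 libraries in each group here and below.

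Pycr1, the reductase that completes proline, had 28.6, 27.2, 35.2 and 24.8 CPM in LacZ SS and 116, 117, 116 and 101 CPM with TGFb. In iCre cells it had 24.8, 27.8, 29.8 and 17.7 CPM in SS and 121, 105, 97.9 and 94.0 CPM with TGFb. Every TGFb library lay above every SS library, and the TGFb libraries lay close together, with a coefficient of variation of 6.76% in LacZ and 11.3% in iCre. It rose 3.89-fold in LacZ (log2 1.96 ± 0.31, adjusted p = 1.3e-05) and 4.17-fold in iCre cells (2.06 ± 0.31, adjusted p = 1.2e-05).

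Prodh, on the breakdown side, moved the other way at a low level. Its LacZ SS libraries had 0.955, 1.26, 3.79 and 1.58 CPM, and those with TGFb 0.611, 0.689, 1.43 and 0.673 CPM. The groups overlapped, since SS library 1 and 2 lay below TGFb library 3. In iCre cells it had 1.62, 1.19, 2.11 and 1.79 CPM in SS and 1.27, 1.11, 1.14 and 0.478 CPM with TGFb, which overlapped through SS library 2. The log2 change was -1.15 ± 0.40 in LacZ (adjusted p = 0.0197) and -0.75 ± 0.39 in iCre (adjusted p = 0.133), lower in 4 of 4 numbers in each. Without LacZ SS library 3, the LacZ value was -0.57 with an adjusted p of 0.221, and leaving out TGFb library 1, 2 or 4 gave adjusted p-values of 0.0611, 0.0562 and 0.0557. The call was also lost when only the groups compared were fitted (adjusted p = 0.0847), and in iCre one was gained with scaling by total counts alone (-0.99, adjusted p = 0.0360).

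Asns, asparagine synthetase, had the largest fitted fold of the 8 in LacZ cells and the widest error. SS libraries had 63.2, 54.1, 101 and 27.6 CPM in LacZ, and TGFb libraries 303, 350, 292 and 217 CPM. In iCre cells the values were 89.5, 48.4, 96.5 and 20.1 CPM in SS and 345, 286, 264 and 151 CPM with TGFb. No TGFb library overlapped an SS library, and number 4 was lowest in each of these groups. The fold was 4.72 in LacZ (log2 2.24 ± 0.56, adjusted p = 0.0018) and 4.11 with iCre (2.04 ± 0.55, adjusted p = 0.0047).

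Got1, the cytosolic aspartate aminotransferase, had 24.4, 19.8, 33.0 and 20.3 CPM in LacZ SS and 101, 113, 106 and 61.3 CPM with TGFb. In iCre cells 31.7, 22.2, 37.7 and 19.5 CPM in SS stood against 118, 93.9, 93.1 and 42.7 CPM. The groups did not overlap, although TGFb library 4 of iCre came near the highest SS library. The fold was 3.91 in LacZ (log2 1.97 ± 0.31, adjusted p = 1.2e-05) and 3.14 with iCre (1.65 ± 0.31, adjusted p = 0.00014).

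Glul, glutamine synthetase, fell. It had 93.5, 106, 89.6 and 115 CPM in LacZ SS and 33.8, 37.6, 27.2 and 37.7 CPM with TGFb. In iCre cells it had 87.4, 109, 73.2 and 98.5 CPM in SS and 31.0, 31.3, 33.3 and 67.3 CPM with TGFb, where library 4 stood apart and still lay below all SS libraries. TGFb left 0.337 of the SS level in LacZ (log2 -1.57 ± 0.21, adjusted p = 7.9e-07) and 0.442 in iCre (-1.18 ± 0.20, adjusted p = 5.2e-05). Marker sums moved with TGFb too: the median went from 204 CPM in SS to 124 CPM for leukocyte, from 562 to 228 CPM for mural, from 51.2 to 10.1 CPM for cardiomyocyte, from 20.9 to 8.34 CPM for endothelial and from 9.23 to 4.68 CPM for mesothelial markers. The Schwann sum went from 1.92 to 3.03 CPM and the fibroblast sum from 26243 to 36765 CPM. Of the 8 fibroblast markers, Col1a1 and Col1a2 weigh most, with medians over all libraries of 10668 and 9761 CPM. Pdgfra and Dcn had medians of 550 and 761 CPM. Col1a1 itself rose with TGFb, so the fibroblast sum does not measure the number of fibroblasts. What part the cell types of these lists had in the changes of the 8 genes was not tested.

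Slc1a5 and Glud1, the carrier and the mitochondrial dehydrogenase, passed no test with TGFb. Slc1a5 ranged from 137 to 317 CPM in LacZ SS and from 139.5 to 226 CPM with TGFb, with a log2 difference of -0.44 ± 0.39 (95% interval -1.26 to 0.37). In iCre cells it was -0.40 ± 0.39 (-1.21 to 0.41). Glud1 had the narrowest intervals: 0.05 ± 0.10 (-0.17 to 0.26) in LacZ and 0.10 ± 0.10 (-0.12 to 0.31) in iCre. The wide Slc1a5 intervals leave room for a sizeable fall, whereas those of Glud1 bound any change closely.

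**Figure D1:**
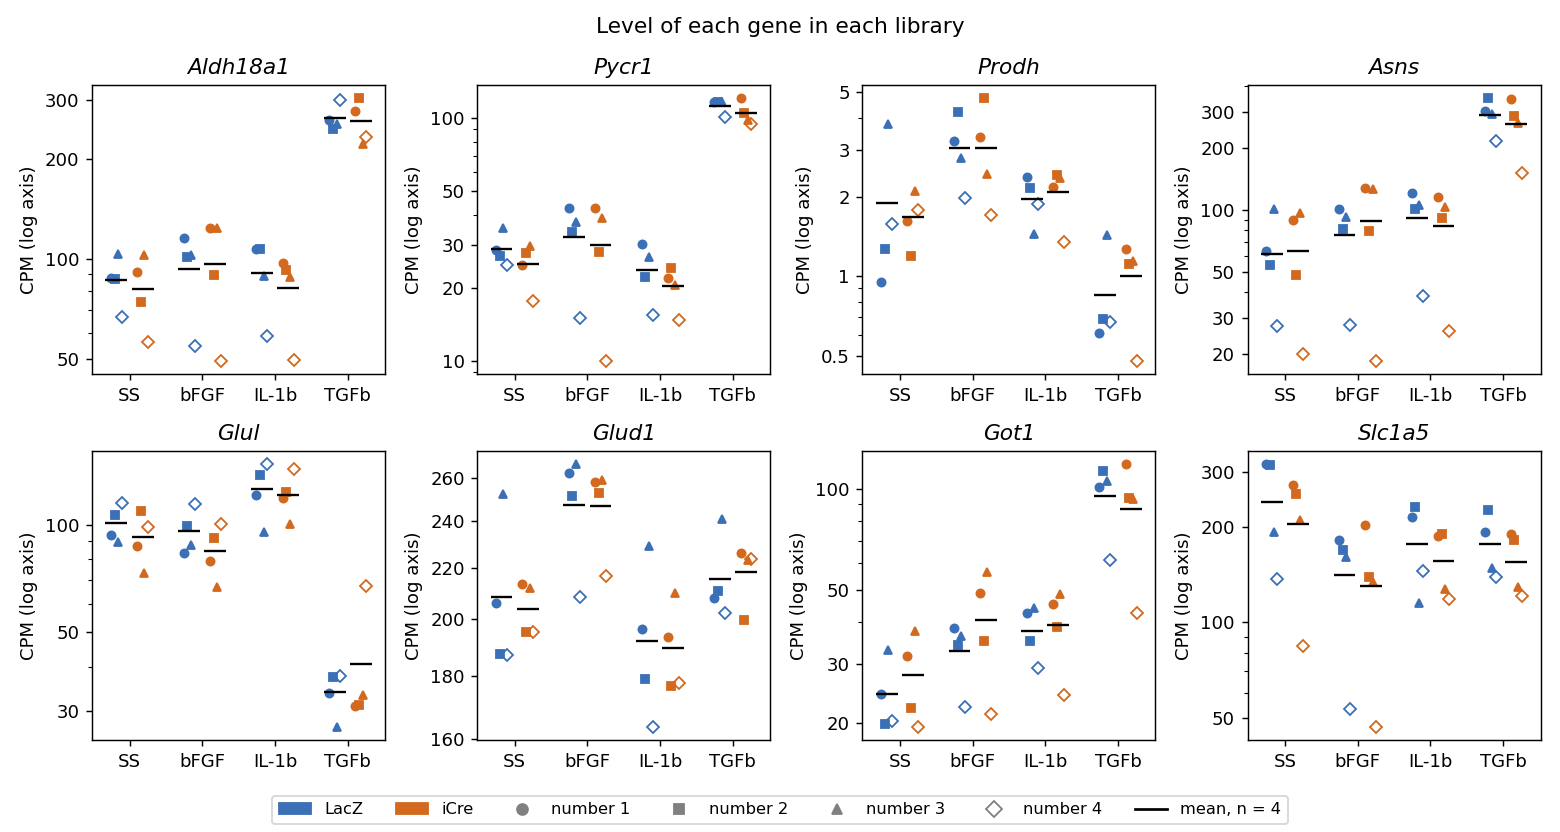
Level of each gene in CPM (log axis) in each of the 32 libraries, by condition (x axis), vector (colour) and replicate number (symbol), with the mean of 4 libraries as a bar. With TGFb, every library of Aldh18a1, Pycr1, Asns and Got1 lies above its SS group and every Glul library below; open diamonds mark number 4.

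Scaled by length, the order of the genes changed with TGFb. In SS, mean CPM per kilobase of exon over 8 libraries ran from 53.4 for Slc1a5 and 49.0 for Glud1 through 29.1 for Glul, 22.9 for Asns, 20.5 for Aldh18a1, 10.3 for Got1 and 6.86 for Pycr1 to 0.229 for Prodh. Slc1a5 and Glud1 differed by less than the sum of their SDs, and so did Glul and Asns, Asns and Aldh18a1, and Got1 and Pycr1. With TGFb, Asns led at 101, then Aldh18a1 at 64.4, Glud1 at 51.5, Slc1a5 at 39.9, Got1 at 35.9, Pycr1 at 27.6, Glul at 11.3 and Prodh at 0.119. Glul thus went from above to below both Got1 and Pycr1 on this scale. Here Glud1, Slc1a5, Got1 and Pycr1 each lay within the summed SDs of the next, while Asns, Aldh18a1 and Glud1 were apart from one another. With bFGF and IL-1b, Glud1 led at 58.7 and 45.3, Slc1a5 followed at 32.6 and 39.9, and Prodh was last in both, at 0.393 and 0.259. Neighbours from Slc1a5 down to Pycr1 with bFGF, and from Glud1 down to Got1 with IL-1b, lay within their summed SDs.

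**Figure D2:**
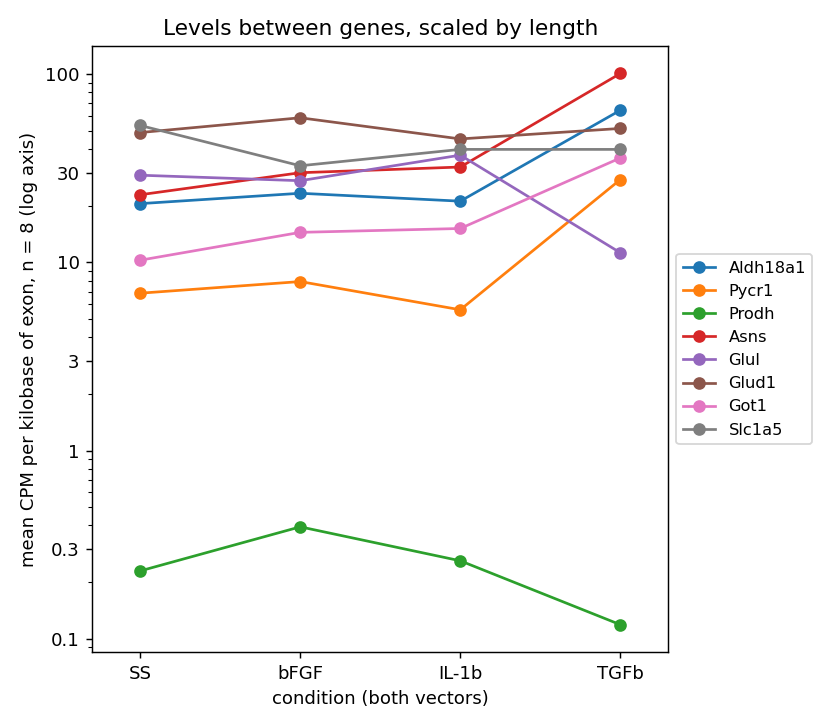
Mean level of each gene in CPM per kilobase of exon (log axis) in each condition, over 8 libraries (both vectors). Asns rises from 22.9 in SS to 101 with TGFb and Glul falls from 29.1 to 11.3, while Prodh stays lowest throughout.

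IL-1b against SS called none of the 8 genes by edgeR in LacZ cells (19.2% of all genes called) or in iCre cells (15.7%). At an unadjusted p under 0.05 there was 1 in LacZ, Got1, and 0 in iCre, against 5179 and 4822 of all 16760 genes tested. DESeq2 also called 0 of the 8 in each, against 3645 and 3142 of all genes. The numbers pair the libraries, and with the replicate number as a block the calls were 1 in LacZ (32.3% of all genes) and 2 in iCre (29.0%). Got1 was then higher, by 0.63 in LacZ (adjusted p = 0.00195) and 0.49 in iCre (adjusted p = 0.0137), and Glul was higher in iCre, by 0.40 (adjusted p = 0.0137).

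Got1 had 42.6, 35.2, 44.0 and 29.2 CPM with IL-1b in LacZ cells and 45.4, 38.6, 48.5 and 24.2 CPM in iCre cells. It was above the SS library of the same number in 4 of 4 pairs in each vector, although the groups overlapped in both. Glul had 121, 138, 95.7 and 148 CPM in LacZ and 119, 123, 100 and 143 CPM in iCre, again higher in 4 of 4 pairs of each vector. Its log2 difference without the block was 0.31 ± 0.20 in LacZ and 0.40 ± 0.20 in iCre. Of the proline genes, Aldh18a1 differed little, by 0.07 ± 0.26 in LacZ and 0.02 ± 0.26 in iCre. Pycr1 was at -0.29 ± 0.30 and -0.30 ± 0.30, lower in 3 of 4 pairs in LacZ and 4 of 4 in iCre. Asns was at 0.57 ± 0.54 and 0.40 ± 0.53, higher in 4 of 4 pairs of each vector. Glud1 was at -0.12 ± 0.10 and -0.11 ± 0.10, lower in 4 of 4 pairs of each.

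bFGF against SS also called 0 of the 8 by edgeR in LacZ (2.56% of all genes) and in iCre (2.2%). At an unadjusted p under 0.05 there were 1 and 2, against 2760 and 2742 of all 16760 genes tested. DESeq2 called 0 of the 8 in each, against 881 and 856 of all genes. Under the replicate block there were 2 in each vector, against 12.2% and 11.4% of all genes. Glud1 was then higher in both, by 0.25 in LacZ (adjusted p = 0.0207) and 0.27 in iCre (adjusted p = 0.0138). Its bFGF libraries had 263, 251, 267 and 209 CPM in LacZ and 258, 253, 259 and 217 CPM in iCre. In iCre cells all lay above the SS libraries, of which the highest had 214 CPM.

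Slc1a5 was lower with bFGF under the block in LacZ cells, by -0.79 (adjusted p = 0.0254). Its LacZ libraries had 182, 169, 162 and 53.4 CPM against 317, 315, 194 and 137 CPM in SS, lower in 4 of 4 pairs with overlapping groups. In iCre cells, 203, 139, 134 and 46.7 CPM stood against 271, 254, 211 and 84.3 CPM, lower in 4 of 4 pairs as well. Got1 was higher in iCre under the block, by 0.51 (adjusted p = 0.0270). Prodh had its highest condition mean with bFGF, 3.07 ± 1.05 CPM (SD, n = 8) against 1.79 ± 0.89 in SS. The log2 difference was 0.69 ± 0.38 in LacZ and 0.87 ± 0.38 in iCre, and without LacZ SS library 3 it was 1.27 in LacZ with an adjusted p of 0.0430, and Glud1 then passed too, at 0.35 (adjusted p = 0.0441).

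**Figure D3:**
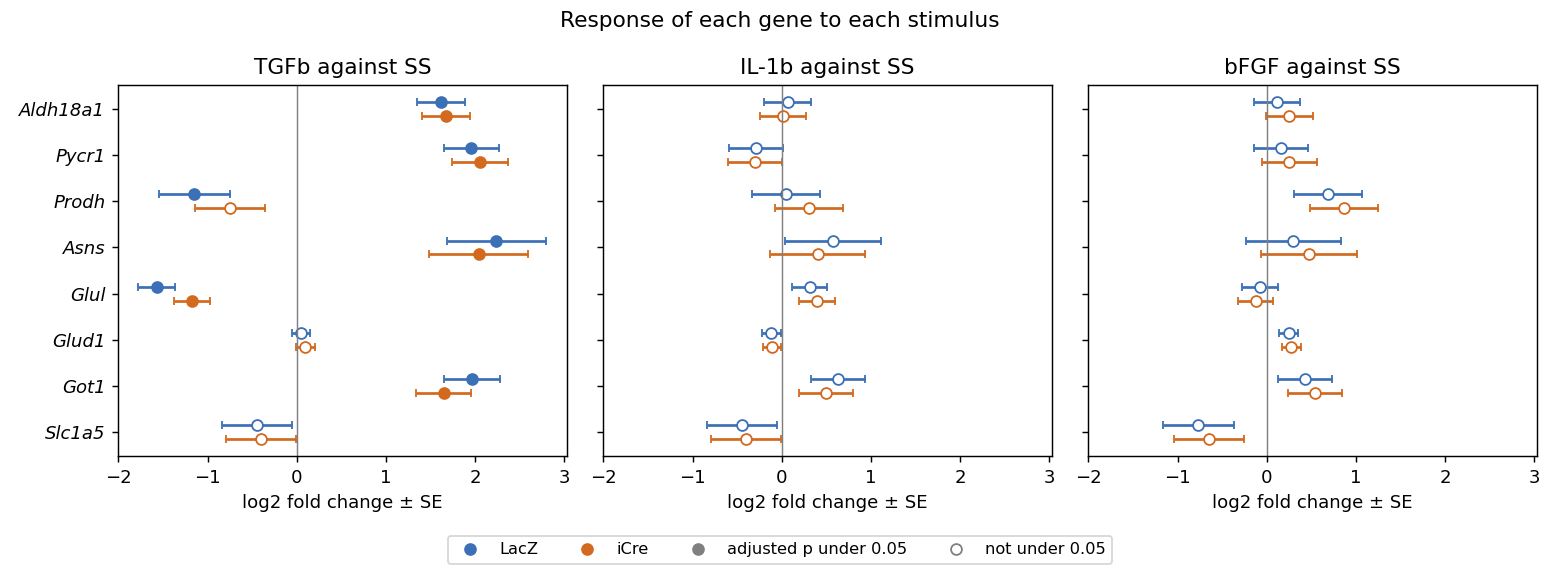
Log2 fold change against SS (x axis, bars are SE, n = 4 per group) of each gene for TGFb, IL-1b and bFGF in LacZ and iCre cells. Filled points, at an adjusted p under 0.05, occur in the TGFb panel alone: 6 in LacZ and 5 in iCre; the replicate block is not used here.

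Set against the other stimuli over both vectors, TGFb called 7 of the 8 genes against IL-1b (50.6% of all genes) and 7 against bFGF (52.1%; 8 of 8 under the block, where 62.6% were called). These contrasts and those against SS share libraries. Pycr1 was 4.93-fold higher with TGFb than with IL-1b (log2 2.30 ± 0.22, adjusted p = 3.1e-09) and 3.49-fold higher than with bFGF (adjusted p = 1.8e-07). Glul was at 0.302 of its IL-1b level (adjusted p = 2.0e-10) and 0.413 of its bFGF level (adjusted p = 5.0e-08).

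Prodh was at 0.458 of its IL-1b level (adjusted p = 0.00138) and 0.302 of its bFGF level (adjusted p = 1.1e-05). Aldh18a1, Asns and Got1 were higher in both contrasts, by 1.24 to 1.76 on the log2 scale. Glud1 was 0.19 ± 0.07 above IL-1b (adjusted p = 0.0387) and -0.19 ± 0.07 against bFGF (adjusted p = 0.0352), small differences that did not hold in every fit. Against IL-1b, total-count scaling gave 0.05 (adjusted p = 0.558), leaving out number 4 gave an adjusted p of 0.0943, and the call was lost without any 1 of 18 libraries (adjusted p = 0.0565 to 0.129). Some of these 18 are SS or bFGF libraries, which share the fit but are not in the contrast. Without iCre bFGF library 1, for example, the difference was 0.16 (adjusted p = 0.0744). Against bFGF the Glud1 call was lost without any 1 of 6 libraries, with adjusted p-values up to 0.0748. Slc1a5 with TGFb exceeded bFGF by 0.39 under the block (adjusted p = 0.0404), but it was higher in 2 of 4 numbers, by 1.38 in number 4, and without number 4 the difference was 0.12 (adjusted p = 0.602).

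IL-1b against bFGF called 2 of 8 genes (25.9% of all genes), with Glul higher by 0.45 ± 0.14 (adjusted p = 0.0177) and Glud1 lower at -0.37 ± 0.07 (adjusted p = 0.000349). Both held that direction in 4 of 4 numbers. Scaling by total counts alone gave Glul an adjusted p of 0.105. The block called 3 (37.9% of all genes), the third being Pycr1 at -0.44 (adjusted p = 0.0238), lower with IL-1b in numbers 1 to 3 and higher in number 4. Without the number 4 libraries, Pycr1 was at -0.62 (adjusted p = 6.5e-05), and leaving out just iCre or LacZ bFGF library 4 gave adjusted p-values of 0.00576 and 0.0221.

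The comparison of iCre with LacZ asks whether recombination of Pkm moved these genes. edgeR called 0 of the 8 in SS, bFGF, IL-1b or TGFb, where 0.0% of all genes were called in each, and 0 over the mean of the 4 conditions, where 0.107% were. It also called 0 for the vector difference in the TGFb, IL-1b or bFGF response, again with 0.0% of all genes. In all of these comparisons 0 of the 8 reached an unadjusted p under 0.05, where 67 to 1153 of all 16760 genes did. DESeq2 also called 0 of the 8. Over all genes it called 85 for the mean of the 4 conditions and 0 in the others.

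Without a block, which leaves the pairing by number unused, the 95% intervals of the mean difference were as follows. For Glud1 it was -0.01 (-0.12 to 0.10), for Glul -0.03 (-0.23 to 0.18) and for Aldh18a1 -0.06 (-0.33 to 0.22). For Pycr1 it was -0.16 (-0.48 to 0.15), for Got1 0.10 (-0.21 to 0.41) and for Prodh 0.03 (-0.37 to 0.43). Asns had the widest, -0.00 (-0.56 to 0.56). With each pair of condition and number as a block, Asns was at -0.09 (-0.26 to 0.08).

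Slc1a5 was at -0.18 (-0.58 to 0.23) and lower in the iCre library in 13 of 16 pairs. Blocking on each pair of condition and number gave it -0.19 ± 0.05 (-0.30 to -0.08) with an adjusted p of 0.0411. The pair block called 5.86% of all genes. Counts summed over conditions, which leave 4 pairs, gave Slc1a5 -0.19 (-0.32 to -0.07) with an adjusted p of 0.365. Pycr1 was lower in the iCre library in 12 of 16 pairs. The pair block narrowed its interval to -0.29 to -0.07 around -0.18, with an adjusted p of 0.0505, and summed counts gave -0.14 (-0.23 to -0.05) with an adjusted p of 0.367. The TGFb response of Glul differed between the vectors by 0.39 (-0.19 to 0.98). In number 4 the response was -1.61 in LacZ and -0.55 in iCre, and without number 4 the difference between the vectors was 0.05 (-0.42 to 0.51).

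**Figure D4:**
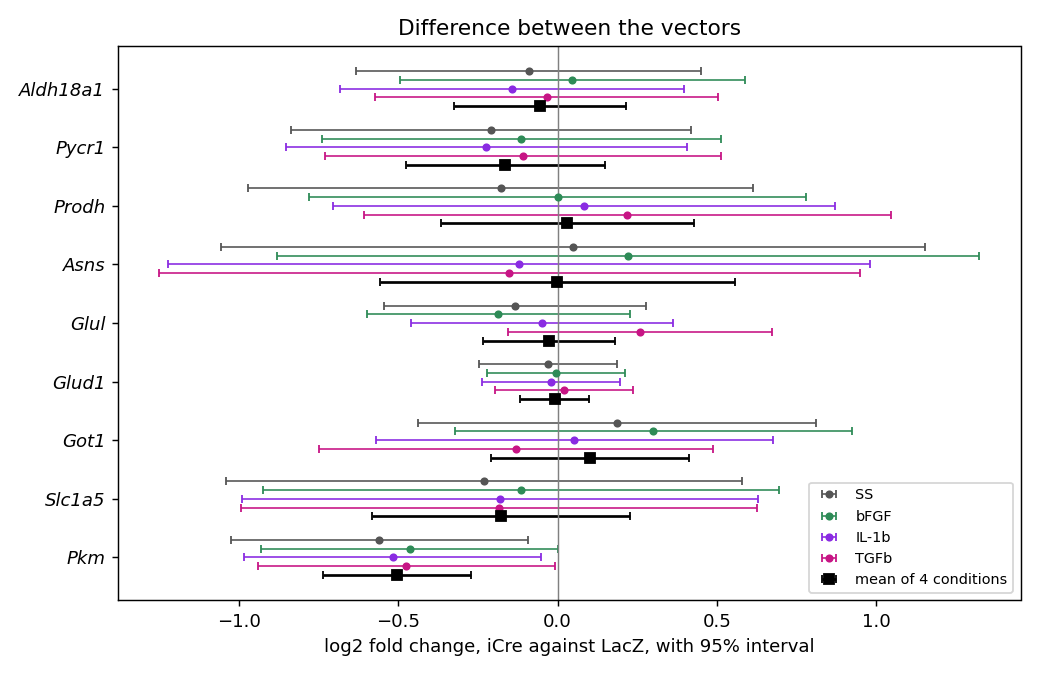
Log2 fold change of iCre against LacZ for each gene and for Pkm, with 95% intervals, in each condition (n = 4 per group) and over the mean of 4 conditions (black squares). In this fit without a block, all mean intervals of the 8 genes include 0, whereas that of Pkm lies below it. With each pair as a block, not drawn, those of Slc1a5 (-0.30 to -0.08) and Pycr1 (-0.29 to -0.07) lie below 0.

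The replicate number 4 stood apart for several of these genes, most for Asns. Over SS, bFGF and IL-1b, its geometric mean was 0.280 of that of numbers 1 to 3 for Asns, 0.461 for Slc1a5, 0.533 for Pycr1, 0.564 for Aldh18a1 and 0.624 for Got1. For Glul it was 1.23, for Glud1 0.866 and for Prodh 0.749. For Slc1a5 with IL-1b, number 4 lay above number 3, at 131 against 121 CPM. With TGFb the ratios were 0.593 for Asns, 0.741 for Slc1a5, 0.873 for Pycr1, 1.02 for Aldh18a1 and 0.493 for Got1, and 1.57 for Glul. For Asns the log2 change with TGFb was thus larger in number 4, at 2.98 in LacZ and 2.91 in iCre, than in the other numbers, where it ran from 1.45 to 2.69.

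Of the 14 genes of the ATF4 list, 11 were lower in number 4 over SS, bFGF and IL-1b, with a median difference of -0.74 on the log2 CPM scale, against 49.5% of all genes tested and a median of 0.00. For 5 genes chosen after their values were seen, the ratio was 0.597 for Atf4 itself, 0.205 for Trib3, 0.232 for Mthfd2 and 0.230 for Chac1, but 1.13 for Psat1. Number 4 also had the lowest median sum of fibroblast (17666 CPM), mural (189 CPM), leukocyte (63.1 CPM), endothelial (10.9 CPM) and cardiomyocyte markers (10.8 CPM). Its mesothelial median was the highest of the numbers (5.85 CPM), and its Schwann median, 2.27 CPM, was above that of number 2 (1.84 CPM). The highest fibroblast and cardiomyocyte sums of any library, 43989 and 128 CPM, were also in number 4. What number 4 stands for is not given in the labels, and its part in these values was not tested beyond leaving it out. Without the 8 libraries of number 4, the same 6 and 5 genes were called for TGFb in LacZ and iCre. Over all genes, 8687 and 8007 of 16506 were called there. Got1 then also passed for IL-1b in LacZ (adjusted p = 0.0133) and iCre (adjusted p = 0.0406), where 29.5% and 25.9% of all genes were called. For bFGF none of the 8 passed in LacZ (9.92% of all genes), and Got1 and Glud1 passed in iCre (adjusted p = 0.0319 and 0.0363; 15.9% of all genes).

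**Figure D5:**
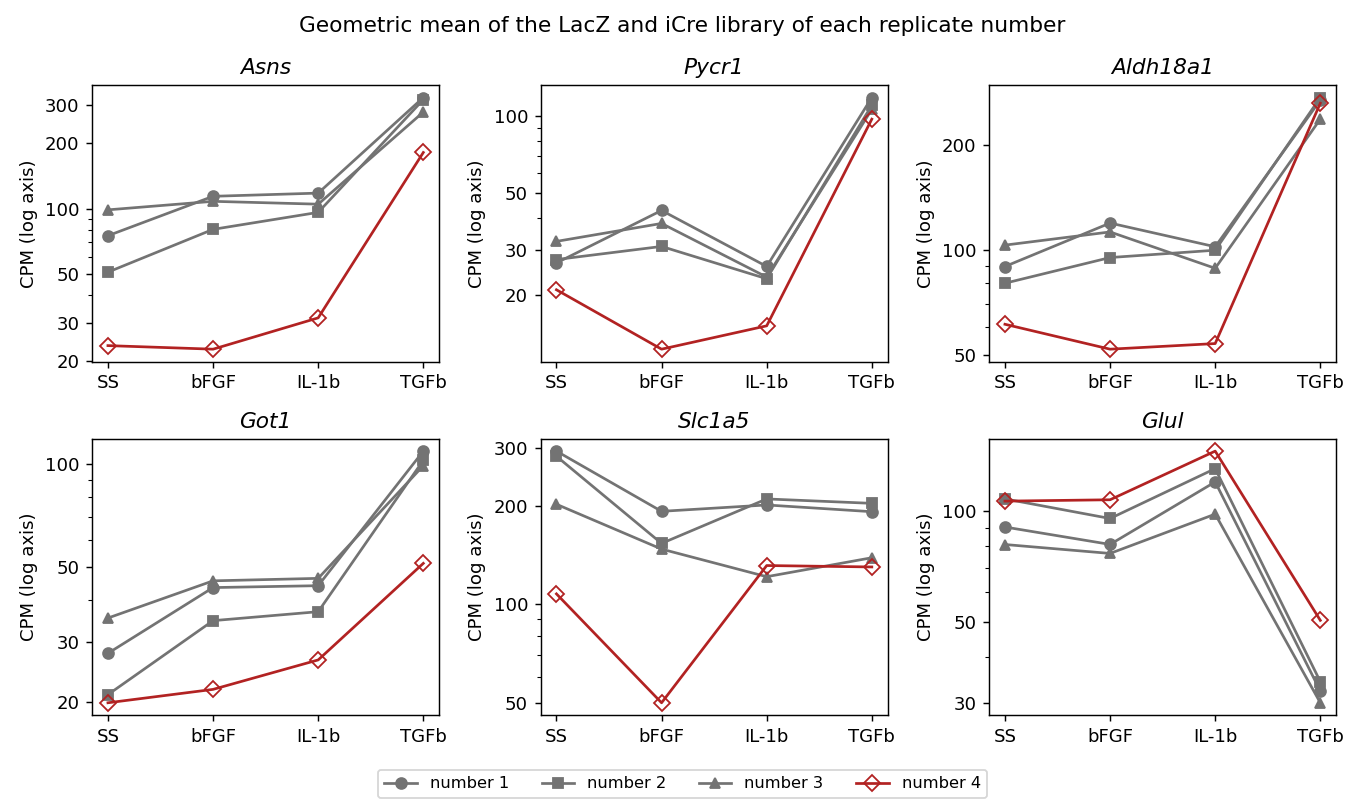
Geometric mean CPM (log axis) of the LacZ and iCre library of each replicate number, by condition, for 6 genes. Number 4 (red) lies lowest for Asns, Pycr1, Aldh18a1 and Got1 in SS, bFGF and IL-1b, and highest for Glul with TGFb.

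Across the 32 libraries, the rising genes ran together. Pearson's r of log2 CPM was 0.97 between Aldh18a1 and Pycr1, 0.94 between Aldh18a1 and Asns and 0.94 between Asns and Got1, and after the group means were removed it was still 0.89, 0.93 and 0.88. Glul ran against them, at -0.91 with Pycr1 and -0.86 with Got1, and at -0.52 and -0.85 after the group means were removed. Slc1a5, which passed no test with TGFb, had 0.30, 0.30, 0.42 and 0.18 with Aldh18a1, Pycr1, Asns and Got1. After the group means were removed, these were 0.77, 0.78, 0.78 and 0.57, so the link within groups is not particular to the rising genes. These correlations are descriptions over libraries that share groups and numbers, so that the TGFb groups and number 4 weigh on them.

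Among 9555 named genes with an average log2 CPM of at least 3, those most like Asns were Mthfd2 (mitochondrial one-carbon enzyme, r = 0.99) and Cars (cysteinyl-tRNA synthetase, 0.99). Got1 was most like Nars (asparaginyl-tRNA synthetase, 0.99) and Ak6 (0.98), Aldh18a1 most like Aldh1l2 (0.98) and Yars (0.97), and Pycr1 most like Ddah1 (0.97) and Aldh18a1 (0.97). For Glul they were Slc44a1 and Tbc1d2b (0.96 each), for Glud1 Sh3bgrl3 (0.90) and Slc6a6 (0.87), for Slc1a5 Smoc1 and Chfr (0.87 each) and for Prodh Unc5a (0.88) and Nedd4l (0.87).

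The surrounding pathway was read from a list of other transport, breakdown and synthesis genes of glutamine, proline and asparagine, of which 60 were tested. With TGFb, 28 rose and 7 fell in LacZ and 26 rose and 9 fell in iCre, and 26 rose and 5 fell in both. That is 58.3% of the list in each vector, against 46.3% and 38.3% of all genes. The median was 0.36 and 0.26, against -0.06 and -0.05 over all genes. When libraries were scaled by total counts alone, 21 rose and 9 fell in LacZ and 18 rose and 10 fell in iCre. These make 50% and 46.7% of the list, where 7631 and 6548 of all 16760 genes were called. With IL-1b, 11 rose and 2 fell in LacZ and 7 rose and 1 fell in iCre, 21.7% and 13.3% of the list, near the 19.2% and 15.7% of all genes. Under the block, 21 rose and 5 fell in LacZ (43.3% against 32.3% of all genes) and 12 rose and 2 fell in iCre (23.3% against 29.0%). With bFGF, 1 rose and 1 fell in each vector, 3.33% against 2.56% and 2.2% of all genes. The block gave 4 up and 3 down in LacZ and 3 up and 4 down in iCre, 11.7% in each against 12.2% and 11.4%. Without number 4, where 58 of the list were tested, bFGF gave 6 up and 2 down in LacZ and 10 up and 4 down in iCre. These make 13.8% and 24.1% of those tested, against 9.92% and 15.9% of all genes.

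Around proline, the reductase Pycr3 rose 1.48-fold in LacZ and 1.43-fold in iCre with TGFb (adjusted p = 0.00205 and 0.00491), calls that total-count scaling did not keep. Aldh4a1, which follows Prodh in proline breakdown, fell to 0.644 in each vector (adjusted p = 0.0108 and 0.0132). Its iCre call was lost without iCre TGFb library 2 (adjusted p = 0.0605) and when only the groups compared were fitted (0.0532). Oat, which links ornithine to the same intermediate, was at -0.15 ± 0.24 and -0.08 ± 0.24. Pycr3 and Oat were named as partners of the 8 genes, outside the rule for naming. Odc1, which turns ornithine into putrescine, rose 6.42-fold and 5.51-fold, and Slc36a1, a proton-coupled carrier of small amino acids, fell to 0.676 and 0.780.

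Among glutamate enzymes, Bcat1, the cytosolic branched-chain aminotransferase, rose most with TGFb, with a log2 change of 3.29 in LacZ and 3.17 in iCre (adjusted p = 2.9e-09 and 1.3e-08). The GABA-side enzymes Aldh5a1 and Abat fell, to 0.366 and 0.518 in LacZ and to 0.419 and 0.485 in iCre.

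IL-1b raised the cystine-glutamate exchanger Slc7a11 12.5-fold in LacZ and 5.56-fold in iCre, and the glutamine-using enzymes Gfpt2 (hexosamine synthesis) 4.23-fold and 3.59-fold and Ctps (CTP synthesis) 4.17-fold and 3.79-fold. Gfpt2 also rose with bFGF, 2.97-fold and 2.71-fold, though in iCre the call was lost when only the groups compared were fitted (adjusted p = 0.0775).

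Of 14 genes on the list of ATF4 and its targets, 9 rose and none fell with TGFb in each vector (64.3% of the list against 46.3% and 38.3% of all genes), with a median of 1.60 in LacZ and 1.40 in iCre. Total-count scaling gave 9 up and 2 down in LacZ and 8 up and 1 down in iCre. These make 78.6% and 64.3% of the list, where 7631 and 6548 of all 16760 genes were called. Atf4 rose 2.68-fold and 2.43-fold, Mthfd2 5.28-fold and 4.74-fold, Chac1, a glutathione-degrading enzyme, 8.19-fold and 6.61-fold, and Nupr1, a stress-induced nuclear protein, 8.20-fold and 6.92-fold. With IL-1b, 2 of the 14 rose and 1 fell in LacZ and 2 rose in iCre, 21.4% and 14.3% of the list against 19.2% and 15.7% of all genes. Under the block, 4 rose and 1 fell in each vector, 35.7% of the list against 32.3% and 29.0% of all genes. Without number 4, 5 rose and 1 fell in LacZ and 5 rose in iCre. That is 42.9% and 35.7% of the list against 29.5% and 25.9% of all genes. Cebpb, a bZIP transcription factor, rose 3.97-fold and 4.06-fold. With bFGF none passed by edgeR or by DESeq2. At an unadjusted p under 0.05 there were 2 in LacZ and 0 in iCre, against 2760 and 2742 of all 16760 genes. Without number 4, however, 3 fell in LacZ and 2 rose and 2 fell in iCre. That is 21.4% and 28.6% of the list against 9.92% and 15.9% of all genes.

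Of 5 fibrillar collagens, whose chains are rich in proline, 2 rose and 1 fell with TGFb in LacZ and 2 rose in iCre. Of all genes, 46.3% and 38.3% were called there. Under the block 4 rose and 1 fell in each vector, where 9787 and 8651 of all 16760 genes were called. Col1a1 rose 1.98-fold in LacZ and 2.31-fold in iCre (adjusted p = 0.0190 and 0.00627) and Col5a2 2.42-fold and 2.99-fold. Col3a1 fell to 0.482 in LacZ (adjusted p = 0.0111) and was at -0.71 ± 0.33 in iCre (adjusted p = 0.0909, or 0.0209 under the block). Col1a2 was at 0.42 ± 0.26 in LacZ (adjusted p = 0.189, or 0.0478 under the block) and 0.64 ± 0.26 in iCre (adjusted p = 0.0565, or 0.00554 under the block and 0.0400 with DESeq2). Col5a1 was at 0.79 ± 0.35 and 0.86 ± 0.35 (adjusted p = 0.0647 and 0.0506). The Col1a1 call in LacZ was lost without library 4 of SS (adjusted p = 0.0585) or of TGFb (0.0567).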

How the data were processed

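RNA-seq libraries were made from polyA RNA with the NEBNext Ultra II kit, per the labels. The deposited values are raw read counts per Ensembl gene, made with HTSeq 0.10.0 after FastQC 0.10.1 on mm10, per the submitters' processing notes; the aligner, strand setting and annotation release were not stated there. Symbols, positions and exon lengths came from GENCODE M21 (GRCm38), which matched 52133 of 55414 identifiers and 99.8% of counts. The table holds 2147 identifiers of a newer series (ENSMUSG00002).

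Counts were fitted with edgeR 4.0.16 (R 4.3.3): TMM factors, filterByExpr (16760 genes kept), 1 mean per group over all 32 libraries (24 residual degrees of freedom), robust quasi-likelihood tests, two-sided, with Benjamini-Hochberg adjustment over all genes per comparison. Intervals are 95%. The code was tested on simulated data. Depth was 20736203 to 34995038 counts per library. Alternatives were RLE factors, total counts, no low-count filter, the replicate number or each pair as a block, the named groups alone, summed counts, DESeq2 1.42.0, and leaving out each library or number 4. Figures used Python 3.11.15 and matplotlib 3.10.9.

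Libraries with the same number deviated together from their group means (Pearson's r 0.153 to 0.857, above 0.1 in 64 of 64 pairs), so the numbers were taken to pair them; the labels do not say what a number marks. No replicates agreed within sampling noise (lowest chi-square per degree of freedom 9.89 over 48 pairs).

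The 8 genes, the pathway and marker lists and the motifs were chosen with earlier results of these data known. Of the pathway list, the 4 highest and 4 lowest per stimulus at most were named, ranked by mean log2 change among genes called in both vectors with an average log2 CPM of at least 1. Pycr3, Oat, Atf4, Mthfd2, Trib3, Psat1 and the collagens were named after their values were seen, as was the number 4 ratio of Chac1. Some genes of the pathway list are counted but not reported here by name.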

Additional observations from a re-analysis of the deposited data

Results flagged for a closer look

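In 6 of 64 groups of 4 libraries, 1 library lay far enough from the rest to pass Dixon's 95% limit, against about 5% of groups by chance. Glul in iCre TGFb library 4 had 67.3 CPM, and the other 3 had 31.0 to 33.3 CPM. Slc1a5 in LacZ bFGF library 4 had 53.4 CPM against 161.5 to 182 CPM. Pycr1 in LacZ TGFb library 4 had 101.1 CPM against 116 to 117 CPM. Prodh in LacZ TGFb library 3 had 1.43 CPM against 0.611 to 0.689 CPM. Glud1 was low in iCre bFGF library 4, at 217 CPM against 253 to 259 CPM, and in iCre TGFb library 2, at 199.8 CPM against 223 to 226 CPM. Of these 6 libraries, 4 carry number 4.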

How the results depend on the processing

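Over 32 fits that left out 1 library and 9 other settings, 5057 of 5344 values of the 8 genes kept their direction and side of the threshold, 37 lost a call, 21 gained one and 0 reversed; 229 uncalled values differed in sign. With the replicate block, IL-1b called 1 gene in LacZ and 2 in iCre, and bFGF called 2 in each. Without number 4, IL-1b called 1 in each vector and bFGF 0 in LacZ and 2 in iCre. The pair block called 1 gene, Slc1a5, for the vector mean. Leaving out 1 library gave 5 to 6 calls for TGFb in LacZ, 5 in iCre, 0 to 2 for bFGF in LacZ, 6 to 7 for TGFb against IL-1b or bFGF, 2 to 3 for IL-1b against bFGF, and 0 in the others. Total-count scaling moved the median of all genes with TGFb from -0.06 to -0.26 in LacZ and from -0.05 to -0.27 in iCre.

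Over all genes, IL-1b called 3216 in LacZ and 2634 in iCre, but 5418 and 4868 under the replicate block and 4874 and 4280 without number 4. bFGF called 429 and 368, but 2048 and 1916 under the block, 1638 and 2621 without number 4, 881 and 856 with DESeq2, 212 and 190 without the filter and 19 and 18 with the named groups alone. The vector mean called 18, but 475 under the replicate block, 982 under the pair block, 114 without number 4, 85 with DESeq2 and 9 with summed counts. The cause of these differences was not tested. Prodh, at 12 to 138 counts a library, is the gene whose depth limits it most.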
